A study of Mus musculus with 8 samples.

Results

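The chaperone genes followed here in splenic regulatory T cells (Tregs) have 10 members: Hspa1a, Hspa1b, Hspa8, Hspa5, Hspd1, Hspe1, Hsp90aa1, Hsp90ab1, Dnaja1 and Hsph1. They were taken by gene symbol from a fixed list of names, which was chosen with earlier results of these data known. All 10 were found among the 55487 genes of both deposited tables. Tregs are CD4 T cells that express Foxp3 and restrain other immune cells, and SRC-3, encoded by Ncoa3, is a transcriptional coactivator. The study asked how the transcriptome of SRC-3KO Tregs differs from that of control Tregs. There were 4 groups of 2 libraries, all from C57BL/6 spleens: SRC-3KO and control Tregs of tumor-bearing mice, and SRC-3KO and control Tregs of mice without a tumor. Of the no-tumor controls, replicate 1 carries the name wild type and no mention of GFP in its source label, whereas the other 3 controls are called Foxp3-Cre and GFP+. Both SRC-3KO no-tumor names, and no others, contain Tam1, which the labels do not explain. The labels also leave out the ages of the mice, the tumor type and how SRC-3 was deleted. The labels do not say that replicates came from separate animals, so p-values measure only the spread between these libraries, which may be technical.

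Chaperones bind proteins that are not folded and use cycles of ATP binding to help them fold, or hold them until they can. HSP70 proteins bind short exposed stretches early, J-domain proteins deliver clients and start ATP hydrolysis, and nucleotide exchange factors release them. HSP90 acts later on clients such as kinases and steroid receptors, while HSP60 with HSP10 forms a closed folding chamber in mitochondria. Many of these genes carry heat shock elements, the binding sites of the heat shock factors, and the endoplasmic reticulum (ER) chaperone Hspa5 carries ER stress response elements.

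The heat shock element and the ER stress response element are shown first because they mark the known control regions of the members. The 250 bases upstream of each RefSeq start (build GRCm38.p6) were searched on both strands. RefSeq windows matched 7 of the 10 members, and Hspa8, Hsp90aa1 and Hsp90ab1 had none. The heat shock element was searched as the units GAA and TTC facing each other across 2 bases of any kind, in either order, which was present in 12.8% of all 32851 promoter windows. Its 3-unit form, with a further alternating unit at the same spacing, contains the 2-unit form and was present in 0.466%. The ER stress response element was searched as CCAAT, 9 bases of any kind and CCACG, or the reverse complement, and was present in 0.113%. Capitals mark the matched letters, each stretch runs 5′ to 3′ on the strand of its gene, and a match is a description of the sequence, not of binding.
Hspa1a: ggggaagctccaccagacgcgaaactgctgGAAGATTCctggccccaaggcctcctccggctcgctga
Hsph1: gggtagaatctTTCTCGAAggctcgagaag
Dnaja1: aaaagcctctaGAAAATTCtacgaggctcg
Hspe1: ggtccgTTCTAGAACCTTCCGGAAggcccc
Hspa5: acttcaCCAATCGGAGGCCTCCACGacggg

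The Hspa1a stretch lies at chr17:34972223-34972290 on the minus strand, and the same letters stand upstream of Hspa1b at chr17:34959305-34959372. The 250 upstream bases of these neighbours differed at 3 positions. The Hsph1 stretch lies at chr5:149636351-149636380 on the minus strand. The Dnaja1 stretch lies at chr4:40722333-40722362 on the plus strand, in the window of only 1 of the 3 RefSeq starts of Dnaja1. The Hspe1 stretch, at chr1:55088053-55088082 on the plus strand, held 2 overlapping 3-unit elements and lies between the start of Hspe1 and 1 of the 2 RefSeq starts of Hspd1. These genes are transcribed away from each other, so the same element stands in the upstream windows of both. The Hspa5 stretch lies at chr2:34772019-34772048 on the plus strand. The Hspa1a and Hspa1b stretches overlap no annotated exon, and the other stretches fall inside exons of longer GENCODE transcripts (of Hspd1 for the Hspe1 stretch), so they are shown over 30 bases.

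The no-tumor libraries were deposited as read counts, with totals of 27452922 and 31075452 for SRC-3KO and 25251597 and 24159217 for control, given here as CPM, counts scaled to the size of the library. The tumor libraries were deposited as FPKM, fragments scaled to transcript length and library size, of unknown depth. No library was in both tables, so levels were not compared between tumor states. Ncoa3 had 39.6 and 26.7 CPM in the SRC-3KO libraries against 131.5 and 54.1 CPM in the controls without tumor, and 47.5 and 27.7 FPKM in SRC-3KO against 37.7 and 45.4 FPKM in control with tumor. The target gene was therefore not lower in both libraries labelled SRC-3KO with tumor, and directions with tumor refer to the labels. Foxp3 was detected in all 8 libraries, and was at 230.8 CPM in control replicate 1 without tumor against 10.2 to 21.1 CPM in the other no-tumor libraries. All 13 Treg identity genes and all 7 T cell genes were above 1 in their unit in all 8 libraries. In these bulk libraries fewer cells of a type and less RNA per cell cannot be told apart.

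Without a tumor, 8 of the 10 members had enough counts to be tested, and all 8 had a positive log2 fold change of SRC-3KO over control, with a median of 0.89 against -0.02 over all 14860 genes tested. With median-of-ratios scaling these medians were 0.79 and -0.15, and Hsp90ab1 lay below 0. No member passed an adjusted p of 0.05 in edgeR's quasi-likelihood test. That test called 0 genes (0%), with 472 genes and 0 members at an unadjusted p under 0.05, DESeq2 called 86 genes (0.579%) and 0 members, and edgeR without a filter on low counts 0.264% of genes and 0 members. In 5 of the 8 members both SRC-3KO libraries lay above both control libraries, against 23.8% of all genes tested, and in 0 members below, against 16.9%. Control replicate 1 was the lowest library for 7 of the 8 members, and for 39.7% of all genes. Without that library the median of the members was 0.13, with 1 gene (0.00628%) and 0 members called. With it as the only control, 7434 genes (43.8%) and 6 members were called and the median was 2.67.

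**Figure D1:**
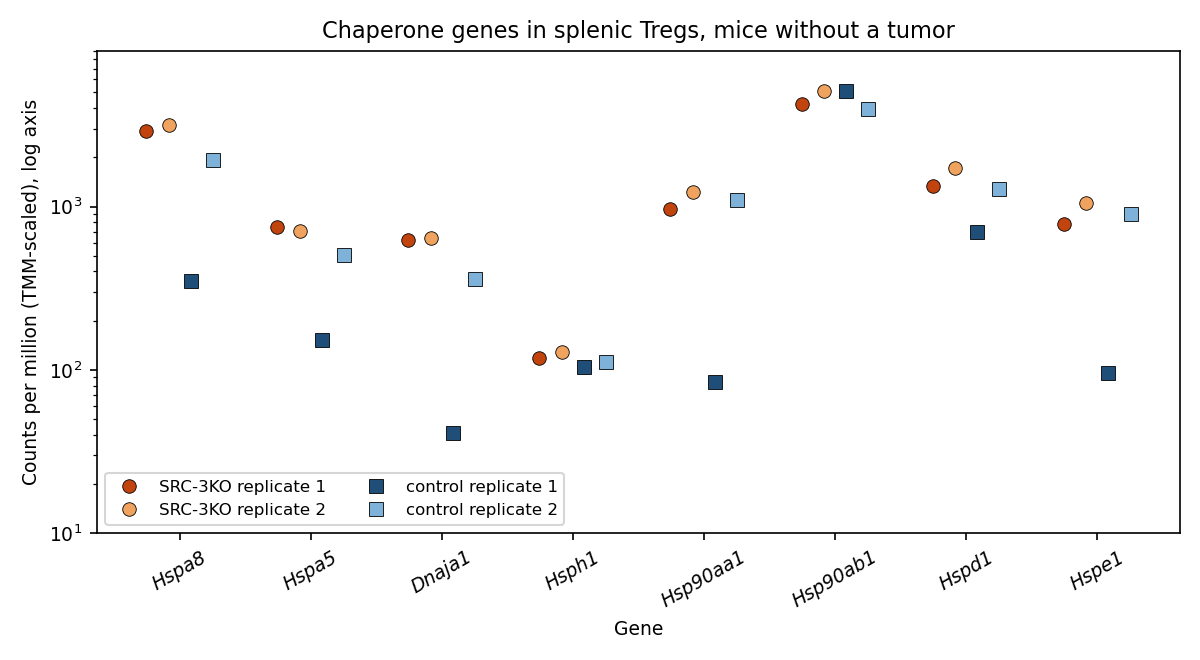
CPM (TMM-scaled, log axis) of the 8 tested chaperone genes in mice without a tumor, one point per library, SRC-3KO as circles and control as squares. Control replicate 1 lies far below the other libraries for Hspa8, Hspa5, Dnaja1, Hsp90aa1 and Hspe1, and among the highest for Hsp90ab1.

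Among the HSP70 genes, Hspa8 (ENSMUSG00000015656, chr9:40800984-40810087 of mm10, plus strand), the constitutive cytosolic HSP70, had 2913 and 3166 CPM in SRC-3KO libraries against 348 and 1927 CPM in control libraries. The groups did not overlap, and the distance between the 2 controls was larger than that from control replicate 2 to either SRC-3KO library. The log2 fold change was 1.42 ± 1.15 (SE, 2 libraries per group; edgeR adjusted p = 0.910). Hspa5 (chr2:34771970-34777547, plus strand), the ER HSP70 also called BiP, had 744 and 707 CPM in the SRC-3KO libraries and 152 and 505 CPM in the controls. Its groups did not overlap either, with a log2 fold change of 1.14 ± 0.97 (edgeR adjusted p = 0.910). Plasma cell markers, from a cell type rich in Hspa5, summed to 1127 and 572 CPM in the SRC-3KO libraries and 138.5 and 1450 CPM in the controls, with 10 and 8 against 6 and 7 of 10 genes at 1 CPM or more. Their part in the result was not tested.

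The stress-inducible pair was at or near 0 in most libraries. Hspa1a (chr17:34969190-34972156, minus strand) had 0 counts in both SRC-3KO libraries, and 32 and 0 counts in control. Hspa1b (chr17:34956436-34959238, minus strand) had 0 and 10 counts in SRC-3KO, and 205 and 0 counts in control. Both were detected mainly in control replicate 1, where most other members were lowest, and a count of 0 allows up to 0.106 to 0.114 CPM in the other libraries. The pair did not pass the filter on low counts and was not tested. Hspa1a shares 58.8% of its 50-base words with Hspa1b, and 62.3% of those of Hspa1b occur in Hspa1a, so the split of reads between them is uncertain.

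Of the HSP70 partners, the J-domain gene Dnaja1 (chr4:40722150-40737149, plus strand), which delivers clients to HSP70, showed the largest difference. It had 624 and 646 CPM in SRC-3KO libraries against 41.1 and 359 CPM in control libraries, a log2 fold change of 1.67 ± 1.19 (edgeR adjusted p = 0.910). The groups did not overlap, and the SRC-3KO libraries were close together while the controls differed widely. Hsph1 (chr5:149614287-149636376, minus strand), an HSP110 that acts as a nucleotide exchange factor for HSP70, had 118 and 128 CPM in the SRC-3KO libraries and 104 and 111 CPM in the controls. All 4 libraries of Hsph1 were similar, and its log2 fold change was 0.19 ± 0.74 (edgeR adjusted p = 0.949).

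The HSP90 genes differed from each other. Hsp90aa1 (chr12:110690605-110702728, minus strand), the inducible cytosolic HSP90, had 965 and 1227 CPM in the SRC-3KO libraries against 84.7 and 1103 CPM in the controls. Control replicate 2 lay between the SRC-3KO libraries, and the log2 fold change was 0.88 ± 1.29 (edgeR adjusted p = 0.910). Hsp90ab1 (chr17:45567775-45573271, minus strand), the constitutive form, had 4217 and 5081 CPM in the SRC-3KO libraries and 5109 and 3960 CPM in the controls. It was the one tested member that was highest in control replicate 1, and its log2 fold change of 0.04 ± 0.95 (edgeR adjusted p = 0.991) turned negative with median-of-ratios scaling, at -0.11.

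The mitochondrial chamber genes lie head to head on chromosome 1 and share 112 exon bases on opposite strands. Hspd1 (chr1:55077835-55088243, minus strand), which encodes HSP60, had 1333 and 1714 CPM in the SRC-3KO libraries and 697 and 1277 CPM in the controls, a log2 fold change of 0.63 ± 0.91 (edgeR adjusted p = 0.910). Its groups did not overlap by a narrow margin, and with counts scaled to library totals alone they overlapped, as did those of Hsph1, which left 3 members higher and 0 lower without overlap, against 18.3% and 21% of all genes. Hspe1 (chr1:55088132-55091307, plus strand), which encodes HSP10, had 785 and 1056 CPM in the SRC-3KO libraries against 96.1 and 898 CPM in the controls. Control replicate 2 again lay between the SRC-3KO libraries, and the log2 fold change was 0.89 ± 1.21 (edgeR adjusted p = 0.910).

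Control replicate 1 also departed from the other no-tumor libraries by GC content and transcript length. The median log2 deviation of its genes from their mean over 4 libraries was -0.60, -0.37, 0.19 and 1.19 in quartiles of increasing GC. In quartiles of increasing transcript length it was -0.66, 0.12, 0.34 and 0.63. With a tumor, the control library numbered 1 ran the other way with length, at 0.33, 0.14, -0.02 and -0.21. The part of length alone in the directions of the members was not tested. The longest transcripts of the 8 tested members ranged from 41.2% GC (Dnaja1) to 51.0% GC (Hsp90ab1), while those of Hspa1a and Hspa1b had 59.0% and 58.1% GC. With the trend in GC and transcript length removed from each library, an alternative chosen after seeing the data, the median of the tested members was 0.63 against 0.10 for all genes, and 0 members were called.

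With a tumor, 9 of the 10 members were tested, and 7 of them had a negative log2 fold change, with a median of -0.22 against -0.02 over all 12859 genes tested. No member passed in limma's test on log2(FPKM + 1), a scale that understates the change of genes with low values. That test called 14 genes (0.109%), with 2119 genes and 1 member, Hspa1b, at an unadjusted p under 0.05. In 5 of the 9 members both SRC-3KO libraries lay below both control libraries, against 24.9% of all genes tested, and in 0 members above, against 27.5%. Of the 8 members tested in both states, 4 lay above both controls without tumor and below both with tumor, against 8.57% of the genes tested in both. Control replicate 1 was the highest library for 5 of the 9 members and for 39.1% of all genes. The replicate block called 0.56% of genes, a pseudocount of 0.1 called 0.0544%, no filter 0.0037% and median-of-ratios scaling 0.0467%, each with 0 members. With the trend in GC and transcript length removed, the median of the members was -0.19, with 0.117% of genes and 0 members called. Without control replicate 1 the median was -0.06 with 3.68% of genes and 0 members called, and without control replicate 2 it was -0.40 with 3 members called (Hspd1, Hspe1 and Dnaja1), beside 2510 genes (20.1%).

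**Figure D2:**
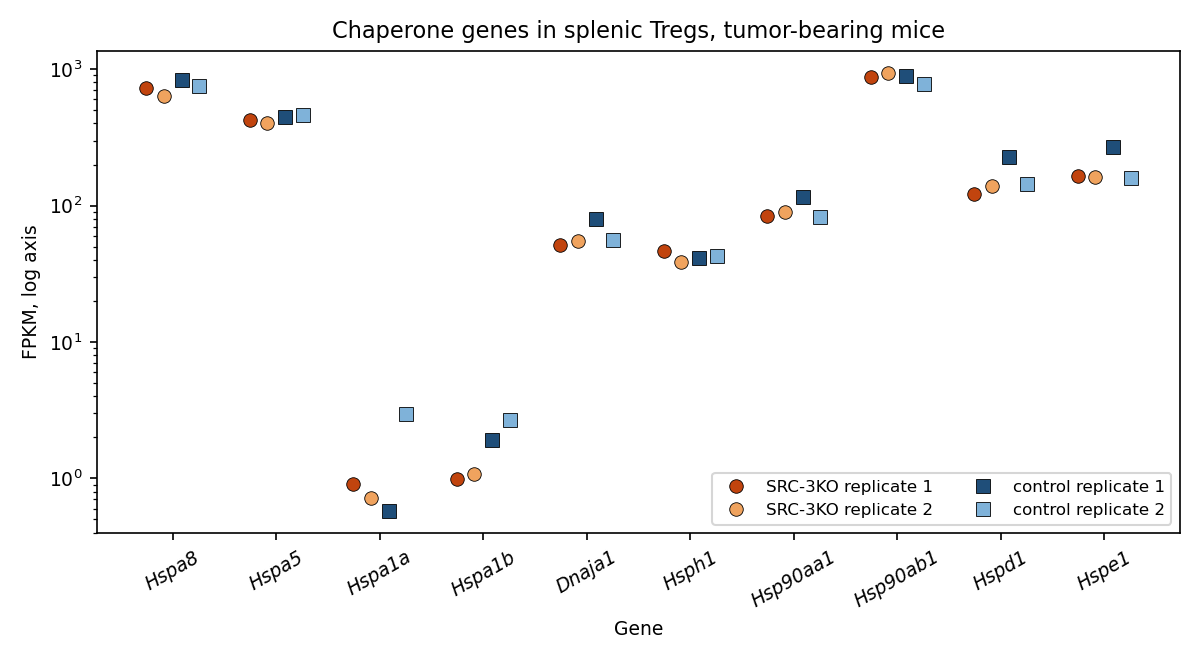
FPKM (log axis) of the 10 chaperone genes in tumor-bearing mice, one point per library, SRC-3KO as circles and control as squares. Groups of most genes lie close together, and Hspa1a and Hspa1b lie below 3 FPKM, with control replicate 2 the highest library for both.

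Hspa8 had 733 and 638 FPKM in SRC-3KO libraries against 837 and 753 FPKM in control libraries, a log2 fold change of -0.22 ± 0.27 (limma adjusted p = 0.700). Hspa5 had 421 and 404 FPKM in SRC-3KO and 444 and 460 FPKM in control, a log2 fold change of -0.13 ± 0.23 (limma adjusted p = 0.787). Neither pair of groups overlapped, and both differences were smaller than their standard errors. Plasma cell markers summed to 317 and 288 FPKM in SRC-3KO against 1298 and 2036 FPKM in control, with 4 and 4 against 8 and 8 of 10 genes at 1 FPKM or more. Xbp1, at 241.2 and 213.2 FPKM in SRC-3KO and 216.1 and 263.6 FPKM in control, was the largest part of the SRC-3KO sums. Igkc, at 982.6 and 1612 FPKM, was the largest part of the control sums. Of 7 plasma cell markers tested, 5 had log2 fold changes below 0 and 2 above. Jchain, the immunoglobulin joining chain, was at 0 and 0.581 FPKM in SRC-3KO and 43.5 and 61.7 FPKM in control. Prdm1 went the other way, at 20.61 and 18.35 FPKM in SRC-3KO and 9.746 and 10.52 FPKM in control. The marker Tnfrsf17 was listed at 0 in all 4 libraries. The part of plasma cells in the Hspa5 values was not tested.

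Hspa1b had 0.993 and 1.07 FPKM in SRC-3KO and 1.91 and 2.67 FPKM in control, a log2 fold change of -0.68 ± 0.25 (limma adjusted p = 0.281). Its groups did not overlap, and it was the member furthest from 0 with a tumor. Hspa1a had 0.913 and 0.712 FPKM in SRC-3KO and 0.575 and 2.97 FPKM in control, and did not reach 1 FPKM in 2 libraries. Control replicate 2, the highest library for both genes, also held the neutrophil markers, which summed to 1.69 and 0.241 FPKM in SRC-3KO against 5.07 and 4073 FPKM in control. Of those 10 markers 4 and 2 were above 0 in SRC-3KO and 5 and 8 in control, and Mpo and Elane were listed at 0 in all 4 libraries. The monocyte and macrophage markers summed to 3.41 and 3.60 FPKM in SRC-3KO and 43.1 and 1395 FPKM in control, with 7 and 7 against 5 and 11 of 11 genes above 0. Their part in the Hspa1a and Hspa1b values was not tested, and without control replicate 1, which leaves that library as the only control, the log2 fold change of Hspa1b was -0.85.

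Dnaja1 had 51.7 and 54.8 FPKM in SRC-3KO and 79.6 and 55.5 FPKM in control, with groups that just did not overlap and a log2 fold change of -0.32 ± 0.23 (limma adjusted p = 0.518). Hsph1 had 46.1 and 38.9 FPKM in SRC-3KO and 41.2 and 42.5 FPKM in control, with both controls between the SRC-3KO libraries. Its log2 fold change was 0.02 ± 0.19 (limma adjusted p = 0.971).

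Hsp90aa1 had 84.5 and 89.1 FPKM in SRC-3KO against 115 and 82.7 FPKM in control, a log2 fold change of -0.17 ± 0.23 (limma adjusted p = 0.726). Hsp90ab1 had 880 and 943 FPKM in SRC-3KO and 897 and 780 FPKM in control, a log2 fold change of 0.12 ± 0.28 (limma adjusted p = 0.838). Both pairs of groups overlapped. Hspd1 had 122 and 140 FPKM in SRC-3KO and 228 and 143 FPKM in control, a log2 fold change of -0.46 ± 0.28 (limma adjusted p = 0.449). Hspe1 had 165 and 162 FPKM in SRC-3KO against 269 and 158 FPKM in control, a log2 fold change of -0.34 ± 0.30 (limma adjusted p = 0.587). For both chamber genes control replicate 1 stood alone at the top, and the other 3 libraries were close together.

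**Figure D3:**
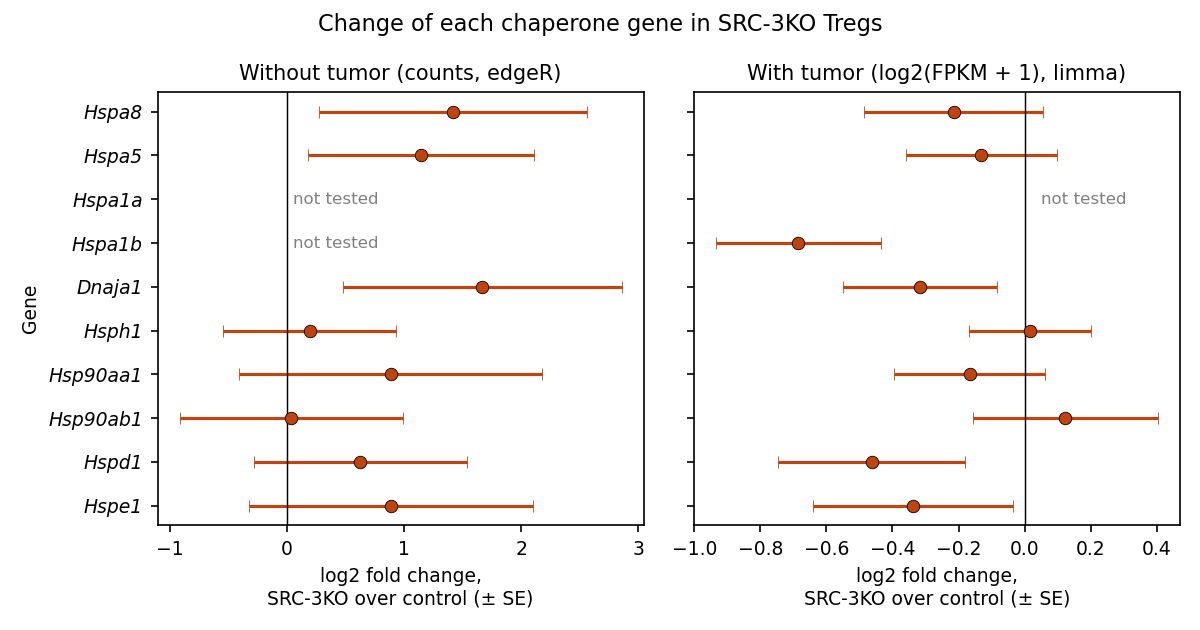
Log2 fold change (SRC-3KO over control, with standard error) for each chaperone gene, without tumor (edgeR on counts) and with tumor (limma on log2(FPKM + 1)), on separate horizontal scales. Without tumor 8 of 8 tested genes lie above 0 (7 of 8 with median-of-ratios scaling) and with tumor 7 of 9 lie below 0, and none passed an adjusted p of 0.05.

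Levels were compared between members only per length. In the values deposited for each gene, without near-identical copies, Hsp90ab1 was the highest in all 8 libraries. With a tumor the members after it came in the same order in all 4 libraries: Hspa8, Hspa5, Hspe1, Hspd1, Hsp90aa1, Dnaja1 and Hsph1. Over those libraries the FPKM ranges of Hsp90ab1 and Hspa8 overlapped, as did those of Hspe1 and Hspd1, and the other neighbours in this order did not. With the FPKM of near-identical copies added, chosen after seeing the data, Hspa8 led all 4 tumor libraries, at 1483 and 1409 FPKM in SRC-3KO and 1773 and 1558 FPKM in control, and Dnaja1 stood above Hsp90aa1. Without a tumor Hsp90ab1 stayed first in all 4 libraries with copy counts added. As deposited, it took 38.7% and 38.8% of the summed counts per exon base of the 10 members in SRC-3KO and 77.7% and 39.8% in control.

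Ratios within a library do not depend on its scaling, but they keep any trend of that library in GC content or transcript length. The longest transcripts have 43.7% GC for Hsp90aa1 and 51.0% for Hsp90ab1, and 964 bases for Hspe1 and 2423 for Hspd1. Near-identical copies were left out of these ratios. The ratio of Hsp90aa1 to Hsp90ab1 in counts per exon base was 0.175 and 0.184 in SRC-3KO and 0.0126 and 0.212 in control without tumor. That of Hspe1 to Hspd1, whose upstream windows share the element shown above, was 1.06 and 1.10 in SRC-3KO and 0.247 and 1.26 in control. In both pairs control replicate 1 was far below the other 3 libraries. With a tumor the FPKM ratio of Hsp90aa1 to Hsp90ab1 was 0.0960 and 0.0945 in SRC-3KO and 0.128 and 0.106 in control, and that of Hspe1 to Hspd1 was 1.35 and 1.16 in SRC-3KO and 1.18 and 1.11 in control.

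**Figure D4:**
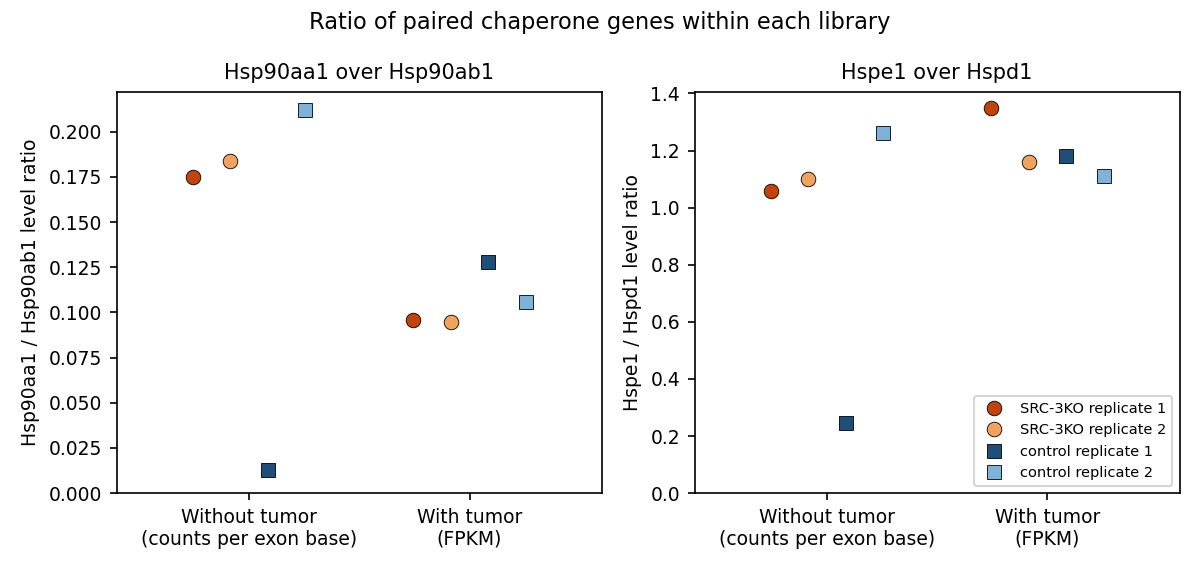
Level ratio of Hsp90aa1 to Hsp90ab1 and of Hspe1 to Hspd1 within each library, from counts per exon base without tumor and FPKM with tumor. Near-identical copies are left out, and trends in GC content and transcript length are not removed. Control replicate 1 without tumor stands apart at 0.0126 and 0.247.

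Several members have near-identical processed copies in the genome that took reads of their own. Without tumor the copies held 56.7% to 60.0% as many counts as Hspa8, 56.9% to 59.7% as many as Hsp90aa1, and 42.3% to 43.8% as many as Hspd1, over the 4 libraries. For Hspe1 the share was 36.9% to 45.3%, and for Dnaja1 50% to 65.3%. With tumor the summed FPKM of the copies came to 102% to 121% of that of Hspa8, 91.2% to 114% for Hsp90aa1, 77.7% to 82.2% for Hspd1, 69% to 83.8% for Hspe1 and 247% to 297% for Dnaja1. Each copy's FPKM is scaled to its own length, so these shares are not shares of reads. Copies of Hsp90ab1 held 0.473% to 0.532% of its counts and 0.436% to 1.30% of its FPKM, and Hspa5 and Hsph1 shared no 50-base word with another gene. With the copies added to their members, chosen after seeing the data, the median was 0.90 without tumor and -0.20 with tumor, and 0 members were called in either. Dnaja1 also shares 608 exon bases on the opposite strand with Smu1, and the labels do not state the strand setting of the counting.

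Wider chaperone lists were read from the same fits, and 0 of their genes passed in either state. The 14 genes of the CCT chamber and prefoldin, which fold and deliver actin and tubulin, had 14 log2 fold changes above 0 without tumor, with a median of 0.91, and 14 below 0 with tumor, with a median of -0.23. Control replicate 1 was the lowest library for 14 of 14 without tumor and the highest for 14 of 14 with tumor. Tcp1, a CCT subunit, had 1142 and 1331 CPM in the SRC-3KO libraries and 166 and 942 CPM in the controls, and Vbp1, a prefoldin subunit, had 36.7 and 40.1 FPKM in SRC-3KO and 58.7 and 45.4 FPKM in control.

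The 15 HSP90 cochaperones had a median of 0.60 without tumor, with 10 above 0, and of -0.08 with tumor, with 10 below 0. Among them Ppp5c, a phosphatase that docks on HSP90, had 76.1 and 86.9 CPM in the SRC-3KO libraries against 511 and 73.3 CPM in the controls without tumor. Cacybp, which binds HSP90 and the ubiquitin ligase partner SIAH, had 69.8 and 77.3 FPKM in SRC-3KO against 128 and 90.5 FPKM in control with tumor. Of 32 J-domain genes tested, 17 lay above 0 without tumor, with a median of 0.19, and 18 with tumor, with a median of 0.05. Dnajb2 had 4.39 and 1.90 CPM in the SRC-3KO libraries and 13.2 and 14.4 CPM in the controls without tumor, and 10.7 and 11.1 FPKM in SRC-3KO and 4.36 and 7.30 FPKM in control with tumor.

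The 11 nucleotide exchange factors and HSP70 cochaperones had a median of -0.67 without tumor, with 8 below 0, and of -0.08 with tumor. Without tumor the median deviation of the list from the mean over the libraries was -0.47 and -0.27 in SRC-3KO and 0.89 and -0.35 in control, so control replicate 1 stood alone. A difference between this list and the members was not tested. Bag6, which guards newly made membrane proteins, had 22.3 and 26.6 CPM in the SRC-3KO libraries and 135 and 37.5 CPM in the controls without tumor, and 11.7 and 17.5 FPKM in SRC-3KO and 6.46 and 8.21 FPKM in control with tumor. The 13 mitochondrial chaperones and proteases had medians of 0.06 without and -0.12 with tumor. Lonp1, a mitochondrial matrix protease, had 28.0 and 24.9 CPM in the SRC-3KO libraries against 202 and 35.5 CPM in the controls. The 23 ER chaperone and unfolded protein response genes had medians of 0.20 without and -0.06 with tumor, and Pdia4, a disulfide isomerase, had 260 and 266 CPM in the SRC-3KO libraries against 55.1 and 177 CPM in the controls without tumor. Hsf1, the heat shock factor that drives the inducible members, had 27.8 and 30.4 CPM in the SRC-3KO libraries and 137 and 27.8 CPM in the controls without tumor, and 24.6 and 22.7 FPKM in SRC-3KO and 15.4 and 12.8 FPKM in control with tumor (log2 fold change 0.71 ± 0.20, limma adjusted p = 0.214). The 12 tested heat shock inducible genes, some of them members, had medians of 0.88 without and -0.08 with tumor.

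**Figure D5:**
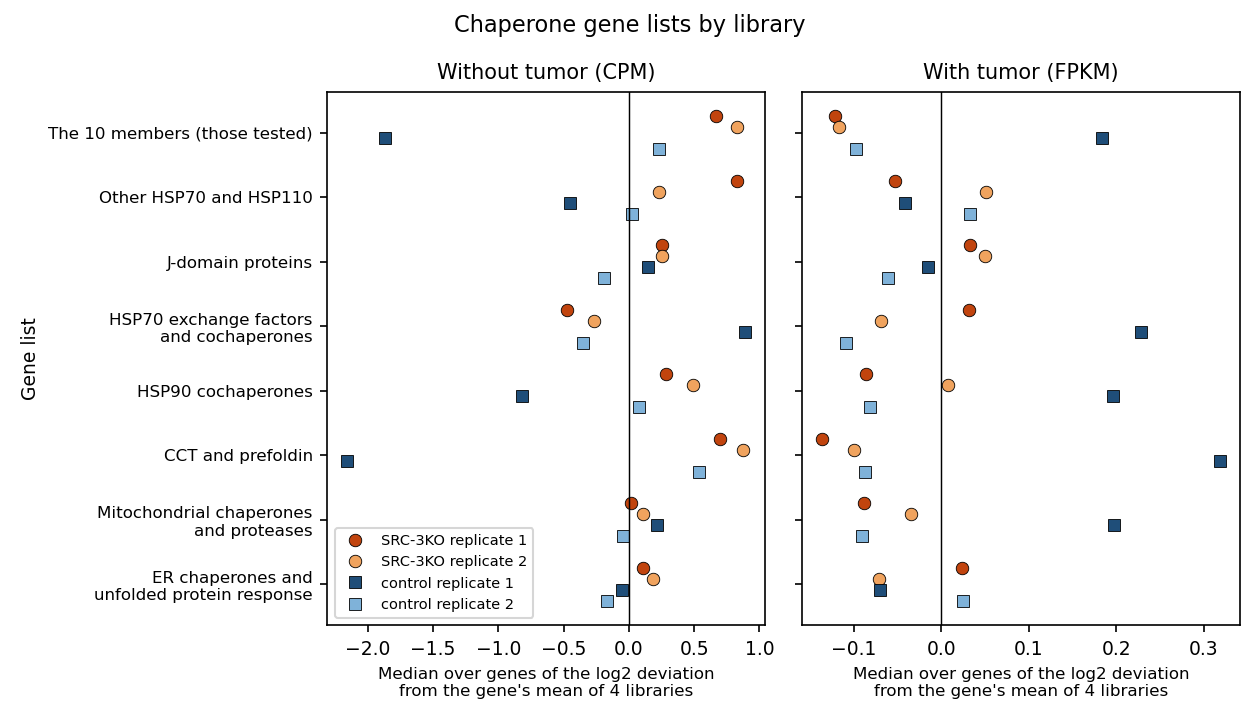
Median over the genes of each chaperone list of the log2 deviation from the gene's mean over the 4 libraries of its table, without tumor (CPM) and with tumor (FPKM), on separate horizontal scales. Control replicate 1 lies at -1.87 for the members and -2.16 for CCT and prefoldin without tumor, and at 0.18 and 0.32 with tumor.

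The genes whose profile over all 8 libraries lay nearest to the mean profile of the members, by summed squared log2 distance among 4422 genes, were Tmem14c, Nudt16l1, Etf1, Aurkaip1 and Rnf181. Their distances were 0.0213 to 0.0338, against a median of 3.73 over these genes. Etf1, a translation termination factor, had 148 and 169 CPM in the SRC-3KO libraries and 62.7 and 129 CPM in the controls, and 53.2 and 58.3 FPKM in SRC-3KO and 65.2 and 58.3 FPKM in control.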

How the data were processed

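RNA was measured in splenic Tregs with SMART-Seq v4 libraries. The labels' protocol names sorting on GFP, which the source label of no-tumor control replicate 1 does not mention. The authors deposited read counts per gene for the 4 no-tumor libraries and FPKM values per gene for the 4 tumor libraries, per the file headers. Per the submitters' processing notes the genome build was mm10 and the tools were FastQC, Trim Galore, STAR, featureCounts and edgeR, and the column names add StringTie. Annotation release, strand setting and versions were not given in the sources used here.

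Counts were tested with edgeR 4.0.16 (R 4.3.3): filterByExpr, TMM, quasi-likelihood test, common dispersion 0.791. FPKM values were tested with limma 3.58.1 with an intensity trend on log2(FPKM + 1), for genes of at least 1 FPKM in at least 2 libraries. p-values were adjusted by Benjamini-Hochberg over all genes tested, with a threshold of 0.05. The SE without tumor was the log2 fold change over the root of its F statistic. Exact permutation of 2 against 2 libraries cannot go below 0.333. Floors for counts of 0 are 3 counts and cover counting error only. Positions, GC and transcript lengths came from GENCODE vM21 by gene ID, and upstream sequences from RefSeq.

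The members and gene lists were chosen with earlier results of these data known. All 10 members were named, with up to 3 genes of smallest p per list and comparison, of which some are printed. The nearest genes are the 5 of smallest distance among genes with a mean of at least 10 in both tables, leaving out ribosomal, predicted and antigen receptor segment genes. Alternatives were DESeq2 1.42.0, other scalings and filters, a pseudocount of 0.1, a replicate block, GC and length trends, added copies and leaving out each library. The fits were also run on simulated data with less spread between libraries than these data have. That run does not show how the fits behave here.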

Additional observations from a re-analysis of the deposited data

Results flagged for a closer look

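In 4 members both SRC-3KO libraries lay above both controls without tumor and below both controls with tumor, out of 8 members tested in both states. The same pattern was found in 1000 of the 11674 genes tested in both states (8.57%). The difference between the tumor states was not tested, since the states were deposited in different units. Hspa8 had log2 fold changes of 1.42 without and -0.22 with tumor. For Hspa5 they were 1.14 and -0.13, for Hspd1 0.63 and -0.46, and for Dnaja1 1.67 and -0.32. None of these changes passed an adjusted p of 0.05, and Hspd1 overlapped between groups without tumor when counts were scaled to library totals.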

How the results depend on the processing

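Genes called without tumor numbered 0 with edgeR, 86 with DESeq2 and 70 without a filter on low counts. Leaving out single libraries gave 0 to 7434 genes, 0 to 6 members and a median of the members of 0.13 to 2.67, with the highest values without control replicate 2. With tumor, genes called numbered 14, against 7 with a pseudocount of 0.1, 1 without a filter, and 6 with median-of-ratios scaling. Single libraries left out gave 31 to 2510 genes, 0 to 3 members and a median of -0.40 to -0.061. A replicate block, with the shared number of the titles as a term, called 72 genes and 0 members with tumor. The labels do not say what these numbers mark. The correlation of replicate differences between the groups was 0.0357, which cannot decide whether the numbers pair the libraries. Signs turned in few cases. Hsp90ab1 without tumor was -0.11 with DESeq2 and with median-of-ratios scaling and -0.025 without a filter. With GC and length trends removed Hspe1 was 0.011 and Hsph1 -0.19 with tumor. Leaving out single libraries gave, without tumor, -0.16 to 0.23 for Hsp90ab1, -0.074 to 3.23 for Hspe1 and -0.12 to 3.67 for Hsp90aa1, the negative values of the last 2 being those without control replicate 1. With tumor it gave -0.72 to 0.043 for Hspe1, -0.40 to 0.069 for Hsp90aa1 and -0.10 to 0.14 for Hsph1. The cause was not tested. Where 1 control is left it is assumed to vary like the other libraries. With 2 libraries per group these data limit all comparisons, and the depth of the FPKM table is unknown.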

Other observations

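The immediate early genes, which stress and cell handling can induce along with chaperones, had a median log2 fold change of -0.90 without tumor over 18 genes and of 0.11 with tumor over 16, with 0 called. Control replicate 1 was the highest library for 15 of 18 of them without tumor, and for 42.5% of all genes tested. Junb had 144.5 and 102 CPM in the SRC-3KO libraries against 1249 and 142 CPM in the controls without tumor, and 407 and 369 FPKM in SRC-3KO against 244 and 263 FPKM in control with tumor. Klf4 had 0 and 0.281 CPM in the SRC-3KO libraries and 17.8 and 3.05 CPM in the controls.

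Of the small heat shock proteins, which hold unfolded clients without ATP, Hspb6 had 1.05 and 2.22 CPM in the SRC-3KO libraries against 26.5 and 6.72 CPM in the controls without tumor (edgeR adjusted p = 0.910). Hspb11, a cilium transport protein that carries a small heat shock protein name, had 21.2 and 28.4 CPM in the SRC-3KO libraries and 1.75 and 15.2 CPM in the controls without tumor, and 4.53 and 2.69 FPKM in SRC-3KO and 13.4 and 7.61 FPKM in control with tumor (limma adjusted p = 0.211).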
